A study of Mus musculus with 8 samples.

Results

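The 9 genes described here encode proteins of the transforming growth factor beta (TGF-beta) pathway or of related families. They are the ligands Tgfb1, Tgfb2 and Tgfb3 and the receptors Tgfbr1 and Tgfbr2. The others are Ltbp1 and Ltbp2 of the latent TGF-beta binding protein family, the activator Thbs1 and the target Tgfbi. The 9 genes were picked by symbol, but with earlier results of these data known. All 9 had a row among the 37583 gene rows of the deposited count tables, and all 9 were among the 15228 genes with enough counts to be tested. RNA-seq, which counts sequenced transcript fragments per gene, was run on whole mouse kidneys, with 4 libraries labelled knockout and 4 labelled wildtype. The knockout mice carried a beta-actin promoter-driven CreERT2, a Cre recombinase that tamoxifen activates, together with floxed Tfap2b alleles (b-actinCreERT2+TFAP2Bfl/fl). The beta-actin promoter is not specific to a kidney cell type. Controls were littermates whose label gives only WT, without saying which of these alleles they carried. The sources used here do not give strain, age, the induction scheme or the time since induction. The deleted gene's product, AP-2 beta, is a transcription factor of distal tubules, and the question asked here is how transcripts of the TGF-beta pathway differed between the groups.

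TGF-beta ligands are secreted bound to their own propeptide. Latent TGF-beta binding proteins, other than Ltbp2, tether this inactive complex to the extracellular matrix. Integrins, proteases and thrombospondin release the active ligand, which joins the type II receptor to the type I receptor. The type I receptor phosphorylates Smad2 and Smad3, which enter the nucleus with Smad4 and change transcription of matrix and feedback genes. In the kidney the pathway is known for its part in fibrosis after injury.

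Library size was similar between the groups, at 13435113 to 17930347 gene counts in the knockout group and 13783857 to 17741722 in the wildtype group. Whole-gene counts of Tfap2b did not fall in the libraries labelled knockout: they were higher in each of those 4 libraries than in any wildtype library (log2 fold change 1.25 ± 0.074 (SE), edgeR adjusted p = 4.18e-06). Such counts include exons outside any deleted stretch, so they do not check the deletion, and every direction below follows the labels, knockout relative to wildtype. Knockout library 4 stood apart by adrenal cortex transcripts, which summed there to 244.9 and elsewhere to 7.63 to 10.8 CPM, a count scaled to library size by TMM factors. Knockout library 1 stood apart from its group by clock gene transcripts, with a score (clock outputs minus clock activators, log2 scale) of 0.91 against a group mean of -0.69 ± 1.11 (SD, n = 4). The wildtype mean of that score was 1.55 ± 1.16 (SD, n = 4; exact permutation p = 0.0571, two-sided). Values without these libraries are given where that ends the call of a named pathway gene. Because the group means of the clock score lay apart, a fit with it as a term also takes up part of the group difference. Calls kept or lost in that fit therefore cannot separate clock from group. The labels do not state that each library came from a different mouse, so p-values measure the spread between these samples, which may be technical in part.

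The sequences before the annotated start show the promoters of the genes that passed the test, Tgfb1 and Ltbp2, beside that of Tgfb2, a ligand that did not. They come from RefSeq (build GRCm38.p6), are written 5′ to 3′ on the gene's own strand, and lie at chr7:25686752-25687001 (plus strand) for Tgfb1, chr1:186705990-186706239 (minus strand) for Tgfb2 and chr12:84876533-84876741 (minus strand) for Ltbp2. They span 250 bases before the RefSeq start, and for Ltbp2 the 209 of these that lie before its GENCODE M21 start. Capitals mark matches, on either strand, to the motifs searched.
Tgfb1: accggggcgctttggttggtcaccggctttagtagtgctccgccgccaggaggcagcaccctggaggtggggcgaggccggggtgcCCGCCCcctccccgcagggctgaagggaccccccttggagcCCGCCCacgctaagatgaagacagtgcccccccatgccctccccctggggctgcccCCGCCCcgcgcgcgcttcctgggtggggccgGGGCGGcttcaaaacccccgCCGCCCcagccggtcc
Tgfb2: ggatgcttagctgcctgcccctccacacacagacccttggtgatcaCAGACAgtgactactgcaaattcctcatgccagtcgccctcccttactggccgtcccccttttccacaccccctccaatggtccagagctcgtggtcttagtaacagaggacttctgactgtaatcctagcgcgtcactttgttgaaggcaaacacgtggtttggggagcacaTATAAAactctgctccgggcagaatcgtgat
Ltbp2: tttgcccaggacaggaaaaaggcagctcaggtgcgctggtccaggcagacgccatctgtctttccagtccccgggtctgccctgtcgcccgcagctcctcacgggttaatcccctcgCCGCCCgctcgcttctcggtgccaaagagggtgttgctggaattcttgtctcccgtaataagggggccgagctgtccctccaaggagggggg
The motifs searched were CAGACA for Smad proteins, then GTCTAGAC as the Smad palindrome, then TGANTCA for AP-1, then GCCNNNGGC for AP-2 factors, then GGGCGG for Sp1, and lastly TATAAA. No 2 matches in these windows shared bases. The Tgfb1 stretch was 75.2% G or C and held 5 matches to the Sp1 motif and none to TATAAA. With the 50 bases after the start included, the Tgfb1 window held 6 Sp1 matches and 1 AP-2 match, the latter 23 bases after the start. The Tgfb2 stretch was 53.6% G or C, and held 1 TATAAA match beginning 31 bases before the start and 1 CAGACA match beginning 204 bases before it. The Ltbp2 stretch was 63.2% G or C and held 1 Sp1 match, and its 300-base window held 2 and no AP-2 match. Among 32851 RefSeq windows of 300 bases, the Sp1 motif was found in 35.7%, the AP-2 motif in 16.6%, CAGACA in 21%, TATAAA in 13.6%, the AP-1 motif in 7.81% and the Smad palindrome in 0.213%. The first Tgfbr1 window held 1 AP-2 match 147 bases before the start and 2 Sp1 matches, the Tgfbi window held 2 Sp1 matches, and the Tgfbr2 window and the first Ltbp1 window held none of the 6 motifs. The second Tgfbr1 window held 1 CAGACA match and the second Ltbp1 window held 2. These matches describe letters in a window, not binding sites.

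Of the 9 genes, Ltbp2 and Tgfb1 rose in the libraries labelled knockout, none fell, and 7 did not pass the test (edgeR quasi-likelihood test, adjusted p under 0.05 by Benjamini-Hochberg over all genes tested). The called share was 22.2% of the 9 genes, beside 11.9% of all genes tested. For rising genes alone, the 2 of 9 compare with 6.23% of all genes, and for falling genes the 0 of 9 compare with 5.7%. Groups did not overlap for 3 of the 9 genes, Tgfb1, Tgfb3 and Ltbp2, beside 18.5% of all genes. An unadjusted p under 0.05 was reached by 7 of the 9 genes, all except the receptors, beside 27.1% of all genes. The median log2 fold change of the 9 genes was 0.36, and that of all genes tested was 0.00. In whole tissue, a change in the number of cells of a type and a change in RNA per cell cannot be told apart, which holds for every value below.

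**Figure D1:**
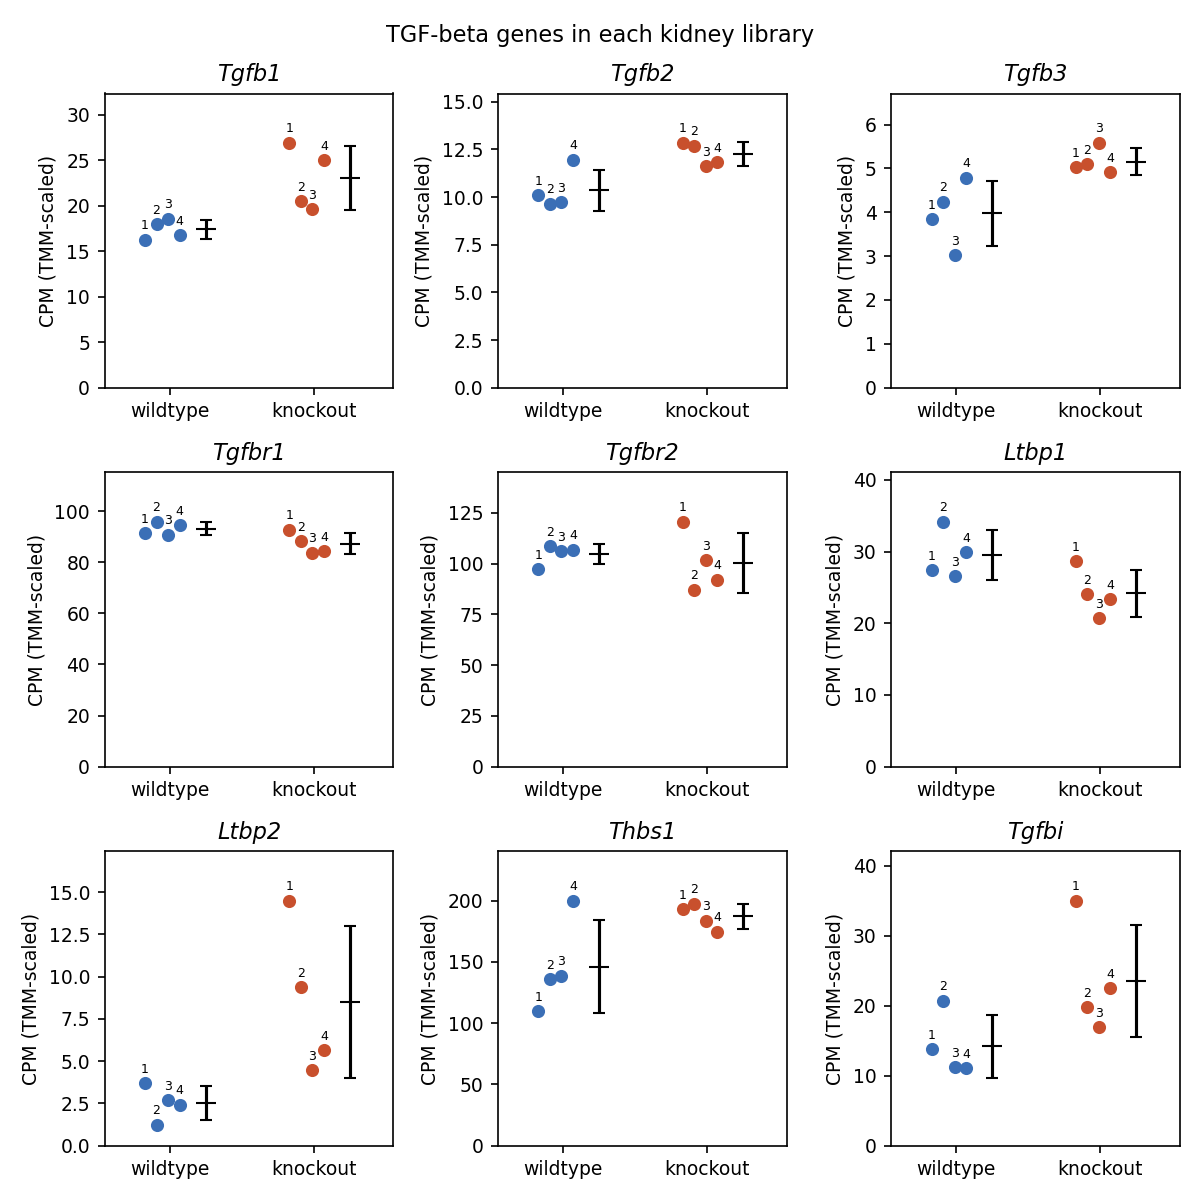
Each panel shows 1 gene in CPM, with the 4 wildtype and 4 knockout libraries as points and the mean ± SD beside them. The groups do not overlap for Tgfb1, Tgfb3 and Ltbp2, and they overlap for the other 6 genes.

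Tgfb1 (ENSMUSG00000002603), the ligand most studied in fibrosis, was the 1 ligand of the 3 that rose. Its levels were 26.9, 20.5, 19.6 and 25.0 CPM in knockout libraries 1 to 4 and 16.3, 18.0, 18.6 and 16.7 CPM in wildtype libraries 1 to 4. All 4 knockout libraries lay above the highest wildtype library, and knockout libraries 1 and 4 were the highest. The means were 23.0 ± 3.52 and 17.4 ± 1.07 CPM (SD, n = 4 each), from 1508 and 1057 reads in all. The difference was 1.32-fold (log2 fold change 0.40 ± 0.11 (SE), with an edgeR adjusted p of 0.0426 and an exact permutation p of 0.0286, which 4 against 4 cannot go below). The call was close to the threshold: the adjusted p was 0.0830 without knockout library 1, 0.0514 without knockout 2, 0.113 without knockout 4, and 0.0965, 0.0742, 0.0668 and 0.0962 without wildtype 1, 2, 3 and 4. It was lost without knockout libraries 1 and 4 together, where the log2 fold change was 0.20 (adjusted p = 0.312), and kept with a clock score term (0.66, adjusted p = 0.0228).

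Tgfb2 (ENSMUSG00000039239), a ligand with its own developmental role in the kidney, stood at 12.9, 12.7, 11.6 and 11.8 CPM in the knockout libraries and at 10.1, 9.64, 9.72 and 11.9 CPM in the wildtype libraries. Wildtype library 4 lay within the knockout range. The log2 fold change of Tgfb2 was 0.24 ± 0.11 (SE; edgeR adjusted p = 0.176), with a 95% interval of 0.0045 to 0.48. Tgfb3 (ENSMUSG00000021253), the ligand with the lowest counts, was measured at 5.03, 5.09, 5.59 and 4.91 CPM in the knockout libraries and at 3.84, 4.24, 3.03 and 4.79 CPM in the wildtype libraries. The Tgfb3 groups did not overlap, although knockout 4 and wildtype 4 were nearly level. Its log2 fold change of 0.38 ± 0.17 (SE) was close in size to that of Tgfb1 but did not pass (edgeR adjusted p = 0.176), with a 95% interval of 0.0065 to 0.75. Reads from genes on the opposite strand could be counted with a ligand. In the GENCODE M21 annotation, 1 such gene overlaps 2.14% of the exonic bases of Tgfb2. For Tgfb3 there are 2 such genes, overlapping 4.82% and 7.60% of its exonic bases, and none overlap Tgfb1. The 3 intervals overlap, so the data do not show that Tgfb1 differed from the other ligands in its response.

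The shares of the 3 ligands overlapped between the groups. Per kilobase of exon, Tgfb1 gave 55.4 ± 4.00% of the summed level of the 3 ligands in the knockout libraries and 53.9 ± 4.19% in the wildtype libraries (SD, n = 4 each). The share of Tgfb2 was 25.9 ± 1.90% in knockout and 27.9 ± 2.03% in wildtype, and that of Tgfb3 was 18.7 ± 2.46% and 18.3 ± 2.80%.

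Neither signalling receptor passed the test. Tgfbr1 (ENSMUSG00000007613), the type I receptor kinase, stood at 92.7, 88.2, 83.7 and 84.3 CPM in the knockout libraries and at 91.3, 95.9, 90.8 and 94.6 CPM in the wildtype libraries. Knockout library 1 alone lay within the wildtype range, and the other 3 lay below it. The log2 fold change was -0.09 ± 0.061 (SE; edgeR adjusted p = 0.348), with a 95% interval of -0.23 to 0.04. Tgfbr2 (ENSMUSG00000032440), the type II receptor that binds the ligand first, stood at 120.8, 87.1, 101.7 and 92.1 CPM against 97.3, 108.5, 106.3 and 106.9 CPM. Its highest value and its 2 lowest values were all in knockout libraries, so the knockout range spanned the wildtype range. The log2 fold change of Tgfbr2 was -0.06 ± 0.097 (SE; edgeR adjusted p = 0.733), with a 95% interval of -0.27 to 0.15. The receptor intervals leave out a change of 1.32-fold upward, the size seen for Tgfb1. The sign of both differences flipped with library totals in place of TMM factors (0.01 and 0.04), a scaling that moves the median of all genes to 0.11. The ratio of Tgfbr1 to Tgfbr2 per kilobase was 1.10 ± 0.135 in the knockout libraries and 1.12 ± 0.0437 in the wildtype libraries (SD, n = 4 each).

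Of the latent TGF-beta binding proteins, Ltbp2 rose and Ltbp1 did not pass. Ltbp2 (ENSMUSG00000002020), a matrix protein of elastic microfibrils that does not itself bind latent TGF-beta as its relatives do, had the largest log2 fold change of the 9 genes. Its levels were 14.5, 9.37, 4.47 and 5.63 CPM in knockout libraries 1 to 4 and 3.69, 1.24, 2.68 and 2.43 CPM in wildtype libraries 1 to 4. Every knockout library lay above every wildtype library, but the knockout values differed among themselves by more than 3 times between libraries 1 and 3. The means of 8.49 ± 4.51 and 2.51 ± 1.01 CPM (SD, n = 4 each) rested on 566 and 152 reads. The difference was 3.39-fold with a 95% interval of 1.74 to 6.58 (log2 fold change 1.76 ± 0.42 (SE), with an edgeR adjusted p of 0.0290 and an exact permutation p of 0.0286). The adjusted p was 0.0756 without knockout 2, 0.0589 without wildtype 2, 0.0760 without wildtype 3, 0.0717 without wildtype 4 and 0.0784 without knockout 1 and 4 together (log2 fold change 1.46). It was 0.0336 without knockout library 1 (log2 fold change 1.37), and 0.0654 with a clock score term (2.21). Of the exonic bases of Ltbp2, 9.34% overlap D030025P21Rik on the opposite strand, which the unstranded counting could not separate. That gene held 0, 0, 1 and 1 reads in the knockout libraries and 0 in each wildtype library.

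Ltbp1 (ENSMUSG00000001870), which tethers latent TGF-beta to the matrix, did not pass. It stood at 28.6, 24.1, 20.7 and 23.3 CPM in the knockout libraries and at 27.4, 34.2, 26.5 and 29.9 CPM in the wildtype libraries. Knockout library 1 was the 1 knockout library within the wildtype range, as for Tgfbr1. The log2 fold change of Ltbp1 was -0.29 ± 0.11 (SE; edgeR adjusted p = 0.131), with a 95% interval of -0.54 to -0.04. Without knockout library 1 it was -0.38 and passed the test (adjusted p = 0.0418). The intervals of Ltbp1 and Ltbp2 did not overlap.

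Thbs1 (ENSMUSG00000040152) encodes thrombospondin 1, which can release TGF-beta from its latent complex. It was measured at 193.0, 197.4, 183.6 and 174.8 CPM in the knockout libraries and at 109.9, 135.9, 138.9 and 200.1 CPM in the wildtype libraries. The knockout libraries lay close together, and wildtype library 4 held the highest value of all 8 while the other 3 lay below every knockout library. The log2 fold change was 0.36 ± 0.15 (SE; edgeR adjusted p = 0.169), and without wildtype library 4 it was 0.54 with adjusted p = 0.00835. Without wildtype library 1 it was 0.24 (adjusted p = 0.287). On the opposite strand, Gm29233 overlaps 3.4% of the exonic bases of Thbs1 (GENCODE M21). Tgfbi (ENSMUSG00000035493), a matrix adhesion protein named for its induction by TGF-beta, stood at 35.0, 19.8, 16.9 and 22.5 CPM in the knockout libraries and at 13.8, 20.7, 11.2 and 11.0 CPM in the wildtype libraries. Wildtype library 2 lay within the knockout range, and knockout library 1 stood above all others. The log2 fold change of Tgfbi was 0.74 ± 0.27 (SE; edgeR adjusted p = 0.121), with a 95% interval of 0.11 to 1.36. It was 0.97 without wildtype library 2 (adjusted p = 0.0436) and 0.48 without knockout library 1 (adjusted p = 0.190), and DESeq2 called it (0.73, adjusted p = 0.0283). Without knockout libraries 1 and 4 together the value was 0.38 (adjusted p = 0.435).

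**Figure D2:**
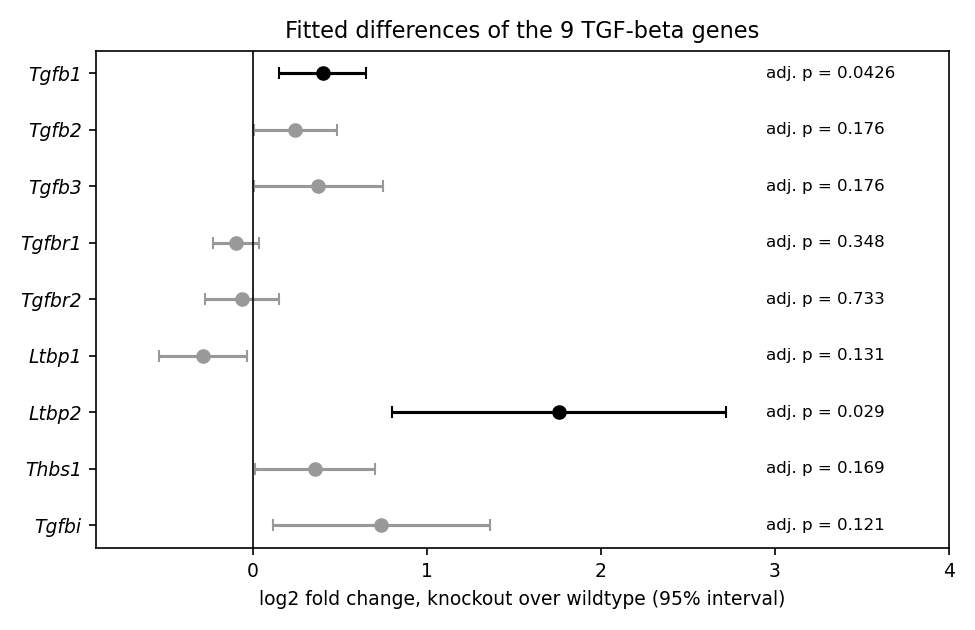
The x axis gives the fitted log2 fold change (knockout over wildtype) and its 95% interval for each of the 9 genes on the y axis. The intervals of Ltbp2 (0.80 to 2.72) and Tgfb1 (0.15 to 0.65) belong to the genes that passed the test, and those of both receptors span 0.

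Per length, transcripts of the activator and the receptors were far above those of the ligands in both groups. In wildtype libraries the mean level per kilobase of exon ran from Thbs1 (24.1 CPM per kb) through Tgfbr1 (14.3), Tgfbr2 (12.8), Tgfbi (3.76), Tgfb1 (3.45), Ltbp1 (2.76), Tgfb2 (1.79) and Tgfb3 (1.17) to Ltbp2 (0.307). Of these neighbours in rank, Tgfbi and Tgfb1 alone overlapped between libraries. In knockout libraries the order of the 9 means was the same: Thbs1 30.8, Tgfbr1 13.3, Tgfbr2 12.3, Tgfbi 6.24, Tgfb1 4.56, Ltbp1 2.26, Tgfb2 2.12, Tgfb3 1.52 and Ltbp2 1.04 CPM per kb. There the libraries overlapped for 4 neighbouring pairs: Tgfbr1 with Tgfbr2, Tgfbi with Tgfb1, Ltbp1 with Tgfb2, and Tgfb3 with Ltbp2.

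**Figure D3:**
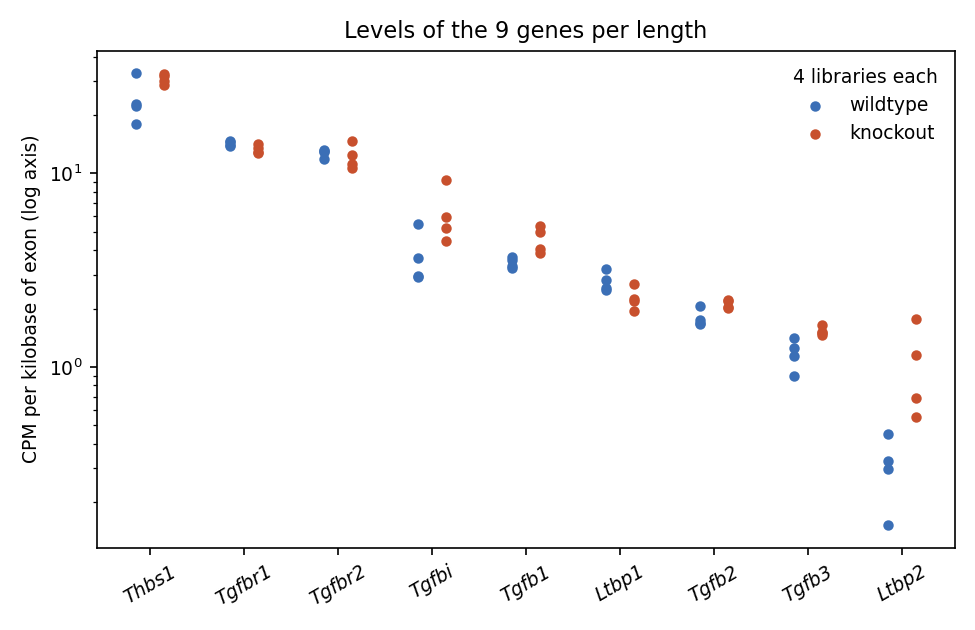
The y axis (log scale) gives CPM per kilobase of exon for each of the 9 genes, with 4 points per group and the genes in the order of the wildtype mean. Thbs1 and the receptors lie above 10 CPM per kb on average in both groups, and Ltbp2, the lowest, moves from 0.307 to 1.04.

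Across the 8 libraries, some of the 9 genes varied together also within the groups. Tgfbr1 and Ltbp1 had r = 0.96 over 8 libraries and 0.93 after the group means were removed (Pearson, log2 CPM). Tgfb2 and Thbs1 had r = 0.88 and, within groups, 0.78. Tgfb1 and Ltbp2, the genes that rose, had r = 0.75, which was 0.28 within groups. Among 12495 other genes, the patterns most like that of Tgfb1 over the 8 libraries were those of Syt13 (r = 0.99), Adgre1 (r = 0.98) and Trp63 (r = 0.97). Within groups, r with Tgfb1 was 0.98 for Syt13, 0.95 for Adgre1, which encodes the macrophage marker F4/80, and 0.94 for Trp63. For Ltbp2 they were Tnip2 (r = 0.96), Slc11a1 (r = 0.95) and Hmcn1 (r = 0.95). Slc11a1 encodes a metal transporter of phagocytes, and Hmcn1 encodes hemicentin, a matrix protein. These correlations describe 8 points that share libraries and scaling, and were picked as the highest of many.

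Macrophage and fibroblast markers were higher in the same libraries. For comparison with the marker counts given here, 6.23% of all genes tested rose and 5.7% fell. The 12 macrophage and dendritic cell markers summed to 661 to 1171 CPM in the knockout libraries and to 357 to 535 CPM in the wildtype libraries, and 9 of the 12 rose, none of them listed at 0 in all libraries. Adgre1 itself stood at 20.1, 9.37, 8.78 and 13.2 CPM in knockout libraries 1 to 4. In the wildtype libraries it stood at 5.50, 5.92, 7.39 and 5.70 CPM. Knockout libraries 1 and 4 were highest, as for Tgfb1, which restates the correlation given above and is not a separate result. Csf1r, the receptor that macrophages need for survival, did not pass (log2 fold change 0.00, edgeR adjusted p = 0.997). The 10 fibroblast markers summed to 570 to 851 CPM against 327 to 448 CPM, and 6 of the 10 rose. Of those 10, Dcn, Col1a1 and Col1a2 are also in the pathway lists below, and Pdgfra did not pass (log2 fold change 0.29, edgeR adjusted p = 0.294). The 6 platelet markers, which matter because platelets carry Tgfb1 and Thbs1 products, summed to 16.8 to 18.7 CPM against 14.1 to 18.0 CPM, and of the 4 tested 1 rose. That was Pf4, platelet factor 4, at 2.57, 3.63, 2.63 and 2.67 CPM against 0.678, 0.804, 1.05 and 0.607 CPM (log2 fold change 1.86 ± 0.25 (SE), edgeR adjusted p = 0.00120). The other tested platelet markers did not pass: Ppbp (log2 fold change -0.64), Itga2b (-0.01) and Gp1ba (0.04). Pf4 alone therefore does not show a rise of the platelet list. Endothelial markers summed to 411 to 486 CPM against 475 to 637 CPM, and 3 of the 8 fell. Pericyte and smooth muscle markers summed to 564 to 612 CPM against 623 to 714 CPM, and 1 of the 10 fell. That was Ren1, which encodes renin, with means of 77.0 CPM in knockout and 161.0 CPM in wildtype libraries (edgeR adjusted p = 0.0469). The other 9 markers did not pass, among them Myh11 (log2 fold change -0.05) and Mylk (0.01), so the lower sums do not show a fall of the list as a whole. Proximal tubule markers summed to 4915 to 8321 CPM against 9668 to 11776 CPM, with 3 of 6 falling, and distal and collecting tubule markers to 7526 to 8105 CPM against 11847 to 13768 CPM, with 5 of 9 falling and 3 rising. Tubular injury markers summed to 3608 to 4346 CPM against 2318 to 3146 CPM, and 7 of the 10 rose. The part of these cell types and of injury in the differences of Tgfb1, Ltbp2 and the other genes, the epithelial integrin chain Itgb6 below among them, was not tested.

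**Figure D4:**
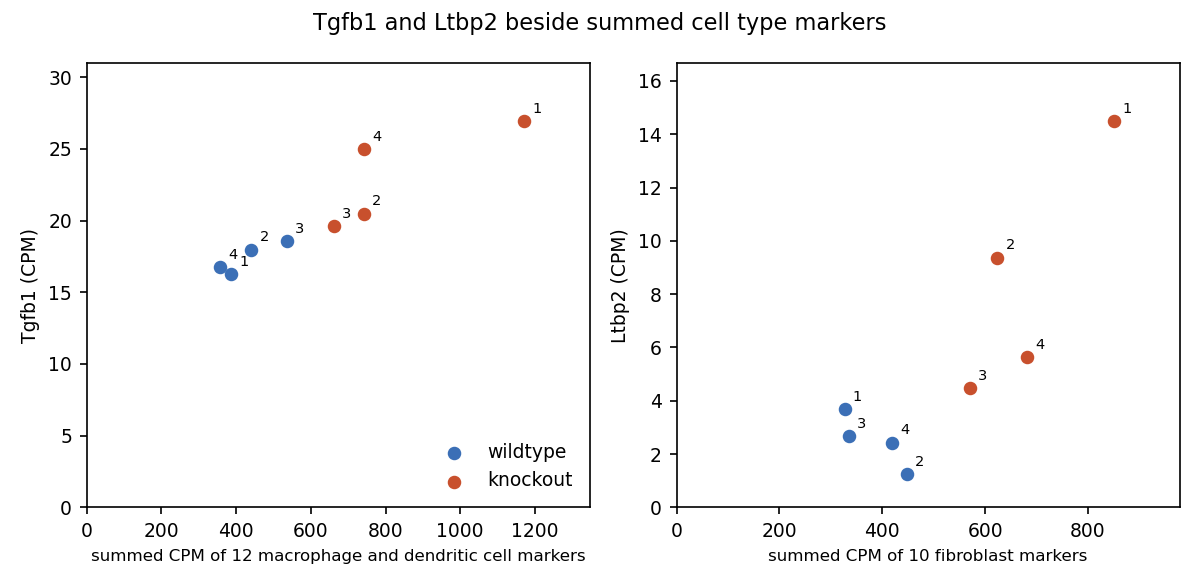
The left panel plots Tgfb1 (CPM, y axis) against the summed CPM of macrophage and dendritic cell markers, and the right panel plots Ltbp2 against that of fibroblast markers, with 1 numbered point per library. Knockout library 1 is the highest in Tgfb1, Ltbp2 and both sums, and all knockout libraries lie above all wildtype libraries on both axes.

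The remainder of the pathway was described through 6 lists with 110 further genes, of which 106 were tested. Of these, 19 rose, 6 fell and 81 did not pass, a called share of 23.6% beside 11.9% of all genes, with a median log2 fold change of 0.13 against 0.00 for all genes. An unadjusted p under 0.05 was reached by 49 of the 106, beside 27.1% of all genes. The count of calls fell to 12 without knockout libraries 1 and 4, and to 9 with a clock score term, while calls over all genes fell from 1817 to 912 and 810. In each list the 4 genes with the smallest adjusted p are named, and the other genes named were picked after their values were seen.

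Among 22 further genes of the latent complex and its activation, 5 rose, 2 fell and 15 did not pass, with a median log2 fold change of 0.08. That is a called share of 31.8%, beside 11.9% of all genes. The genes that fell, Itgb6 and Itgb8, encode 2 of the integrin beta chains in this list. Itgb6, the epithelial chain, stood at 128.3, 130.8, 131.0 and 135.7 CPM in the knockout libraries and at 235.7, 191.7, 153.3 and 203.8 CPM in the wildtype libraries (log2 fold change -0.58 ± 0.11 (SE), edgeR adjusted p = 0.00709). Without knockout libraries 1 and 4 its adjusted p was 0.0630. Itgb8 stood at 238.3, 193.7, 239.3 and 198.6 CPM against 305.1, 329.4, 276.2 and 306.2 CPM (-0.48 ± 0.093, adjusted p = 0.00728), and its adjusted p was 0.0752 with a clock score term. For both chains every knockout library lay below every wildtype library. The alpha chain that pairs with both, Itgav, did not pass (0.23, adjusted p = 0.358). Nor did the list's other beta chains, Itgb1 (-0.05, adjusted p = 0.715), Itgb3 (0.32, adjusted p = 0.434) and Itgb5 (-0.11, adjusted p = 0.329).

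The genes of that list that rose were Fbn2, Mmp2, Ltbp3, Fbn1 and Mmp14. Fbn2, a fibrillin of developing microfibrils, was at 1.52, 0.819, 1.51 and 0.939 CPM against 0.0753, 0.0731, 0.116 and 0.182 CPM. Its log2 fold change was 3.30 ± 0.43 (SE; edgeR adjusted p = 0.000907), on 80 reads in the knockout libraries and 7 in the wildtype libraries. Mmp2, a gelatinase that can release latent TGF-beta, stood at 27.1, 19.8, 17.4 and 17.6 CPM against 6.03, 9.64, 7.74 and 10.5 CPM (log2 fold change 1.27 ± 0.19, adjusted p = 0.00245). Fbn2 and Mmp2 also passed without knockout libraries 1 and 4 and with a clock score term. Ltbp3, a latency protein that binds latent TGF-beta, rose (0.35 ± 0.068, adjusted p = 0.00785) with levels of 80.0 to 94.6 CPM against 65.5 to 71.2 CPM. Its adjusted p was 0.0630 without knockout libraries 1 and 4 and 0.0572 with the clock score. Fbn1 (0.73, adjusted p = 0.0399) and Mmp14 (0.86, adjusted p = 0.0387) rose near the threshold: each lost the call without any 1 of knockout 1, 2 or 4 or wildtype 1, 3 or 4, with adjusted p of up to 0.105 for Fbn1 and 0.0961 for Mmp14. Without knockout 1 and 4 together the adjusted p was 0.155 for Fbn1 and 0.227 for Mmp14, and with a clock score term 0.0776 and 0.208.

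None of 11 further receptors and co-receptors passed, beside 11.9% of all genes, with a median log2 fold change of -0.03. Beside 27.1% of all genes, 4 of the 11 had an unadjusted p under 0.05. Those were the endothelial co-receptor Eng (-0.31 ± 0.091, edgeR adjusted p = 0.0502), the endothelial type I receptor Acvrl1 (0.26 ± 0.084, adjusted p = 0.0656), betaglycan, encoded by Tgfbr3 (-0.23 ± 0.079, adjusted p = 0.0844), and Cd109 (0.89 ± 0.34, adjusted p = 0.113). Eng stood at 134.8, 104.0, 124.5 and 122.8 CPM in the knockout libraries, below the 144.4, 160.0, 135.7 and 161.4 CPM of the wildtype libraries, and it passed with DESeq2 and with limma voom, 1 call each. It also passed without knockout library 1 or without wildtype library 3, and Acvrl1 passed without wildtype library 4. Tgfbr3 passed in 1 of the 8 fits with a library left out (adjusted p = 0.0370). Over the 18 alternative fits, Eng passed in 5, Acvrl1 in 3, Tgfbr3 in 1 and Cd109 in 0.

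Of 11 signal transducers, 1 fell and 10 did not pass, with a median of -0.01. The called share of 9.09% was below the 11.9% of all genes. Smad3, the transducer most tied to fibrosis, stood at 66.4, 53.2, 50.2 and 51.8 CPM in the knockout libraries and at 67.1, 76.1, 83.2 and 77.2 CPM in the wildtype libraries. All knockout values lay below all wildtype values, with knockout 1 and wildtype 1 nearly level (log2 fold change -0.45 ± 0.099 (SE), edgeR adjusted p = 0.0136). With a clock score term the log2 fold change of Smad3 was -0.16 (adjusted p = 0.362). Smad2, its partner in the pathway, had 0.18 ± 0.075 (adjusted p = 0.137), Tab1 -0.28 ± 0.091 (adjusted p = 0.0690, and 0.0271 without knockout library 1) and Zfyve9, which presents Smads to the receptor, -0.22 ± 0.095 (adjusted p = 0.151).

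Inhibitors and feedback genes gave 3 that rose, 1 that fell and 16 that did not pass of 20, with a median of 0.00. Their called share was 20%, beside 11.9% of all genes. Dcn encodes decorin, a proteoglycan that binds TGF-beta, and stood at 179.8, 183.3, 173.7 and 150.9 CPM in the knockout libraries and at 76.9, 110.3, 77.6 and 96.3 CPM in the wildtype libraries (log2 fold change 0.93 ± 0.12 (SE), edgeR adjusted p = 0.000894). It also passed without knockout libraries 1 and 4 (adjusted p = 0.00700) and with the clock score (0.0227). Its relative Bgn rose (0.50 ± 0.12, adjusted p = 0.0212), as did Fst, the activin antagonist follistatin (0.93 ± 0.25, adjusted p = 0.0427). Smad6, an inhibitory Smad, fell (-0.46 ± 0.13, adjusted p = 0.0386), from 25.2, 18.9, 20.1 and 22.7 CPM in the wildtype libraries to 15.5, 17.4, 12.6 and 17.4 CPM. Smad7, the inhibitory Smad that TGF-beta itself induces, did not pass (-0.41 ± 0.13, adjusted p = 0.0629), and its groups overlapped. Single libraries decided several of these calls: Bgn was lost without knockout 4, wildtype 1 or wildtype 3. Fst was lost without knockout 1, 2 or 4 or wildtype 1, 2 or 3, and Smad6 without any of the 8 libraries except wildtype 2. The list's count was 2 without knockout 1 or wildtype 1, and 1 without knockout 4, wildtype 3, or knockout 1 and 4 together. In the last of these fits Dcn alone was called, with an adjusted p of 0.149 for Bgn, 0.203 for Fst and 0.0988 for Smad6. Over the 18 alternative fits the call was lost in 5 for Bgn, in 10 for Fst and in 12 for Smad6. The highest adjusted p over those fits was 0.149 for Bgn, 0.253 for Fst and 0.132 for Smad6.

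Of 38 further transcriptional targets, 36 were tested, and of these 9 rose, 2 fell and 25 did not pass, with a median log2 fold change of 0.28. Called targets made up 30.6% of those tested, beside 11.9% of all genes. Timp1, a protease inhibitor made in injured tissue, was at 4.15, 2.46, 2.80 and 4.77 CPM in the knockout libraries and at 0.904, 0.804, 0.0582 and 0.364 CPM in the wildtype libraries (2.78 ± 0.49 (SE), edgeR adjusted p = 0.00549). Its adjusted p was 0.0558 without knockout libraries 1 and 4 and 0.0621 with a clock score term. Cdkn1a, the cell cycle inhibitor p21 that p53 also induces, was at 29.1, 66.1, 56.8 and 44.8 CPM against 14.5, 9.50, 9.31 and 10.1 CPM (log2 fold change 2.19 ± 0.27, adjusted p = 0.00173). With a clock score term the log2 fold change of Cdkn1a was 1.38, and it still passed (adjusted p = 0.00473). Col1a1, a chain of fibrillar collagen, stood at 156.8, 81.7, 74.3 and 114.6 CPM against 28.2, 44.1, 33.9 and 41.7 CPM (1.53 ± 0.26, adjusted p = 0.00917). Others that rose included Col3a1 (1.37), Col1a2 (0.93), Lox (0.84), Sphk1 (0.66) and Sparc (0.47). Without knockout libraries 1 and 4 the adjusted p was 0.104 for Col3a1, 0.0658 for Lox and 0.138 for Sparc, so that these calls were lost. With a clock score term it was 0.0717 for Col3a1, 0.168 for Lox, 0.169 for Sphk1 and 0.0564 for Sparc. Single libraries also ended calls: Col3a1 without knockout 4 (0.0556) or wildtype 1 (0.0597), Sparc without knockout 4 (0.0526), wildtype 1 (0.0525) or wildtype 3 (0.0589), and Sphk1 without knockout 2 (0.0569), knockout 4 (0.0581), wildtype 1 (0.0548) or wildtype 2 (0.0563).

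Id1 and Id2, inhibitors of differentiation factors that BMP signals induce and TGF-beta can repress, fell. Id1 stood at 18.1, 16.7, 14.7 and 16.1 CPM in the knockout libraries and at 69.4, 44.8, 40.5 and 33.8 CPM in the wildtype libraries, with no overlap (log2 fold change -1.52 ± 0.21 (SE), edgeR adjusted p = 0.00217). Id2 had -0.55 (adjusted p = 0.0354), a call lost without any 1 library except knockout 3 and wildtype 4, without knockout 1 and 4 together (adjusted p = 0.195) and with a clock score term (0.0621). Other well known targets did not pass: Ccn2, the connective tissue growth factor, had 0.41 (adjusted p = 0.134), Fn1, fibronectin, 0.30 (0.518), Acta2, the myofibroblast actin, -0.07 (0.698), and Postn, periostin, 0.29 (0.316). The count of targets called was 11, and it was 7 without knockout library 4 or without wildtype library 1, 5 without knockout libraries 1 and 4, and 4 with the clock score. Zeb1 was listed at 0 in all 8 libraries.

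Among 8 related ligands of the activin and GDF families, 6 were tested, 2 rose and 4 did not pass. The called share of the 6 was 33.3%, beside 11.9% of all genes. Gdf15, a stress-induced member of the family, was at 8.89, 29.4, 22.0 and 25.6 CPM in the knockout libraries and at 4.59, 3.21, 3.32 and 4.67 CPM in the wildtype libraries (log2 fold change 2.44 ± 0.36 (SE), edgeR adjusted p = 0.00397). Knockout library 1 was the lowest of its group for Gdf15 and for Cdkn1a, the reverse of its place for Tgfb1, Tgfbi and Ltbp2. With a clock score term the Gdf15 difference was 1.44 (adjusted p = 0.0894). Gdf11 was at 9.88, 10.8, 9.17 and 9.53 CPM against 5.65, 6.28, 4.83 and 5.64 CPM (0.81 ± 0.13, adjusted p = 0.00231), with an adjusted p of 0.0533 with the clock score. Gdf10 (0.19, adjusted p = 0.480) and Inha (0.15, adjusted p = 0.728) did not pass.

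**Figure D5:**
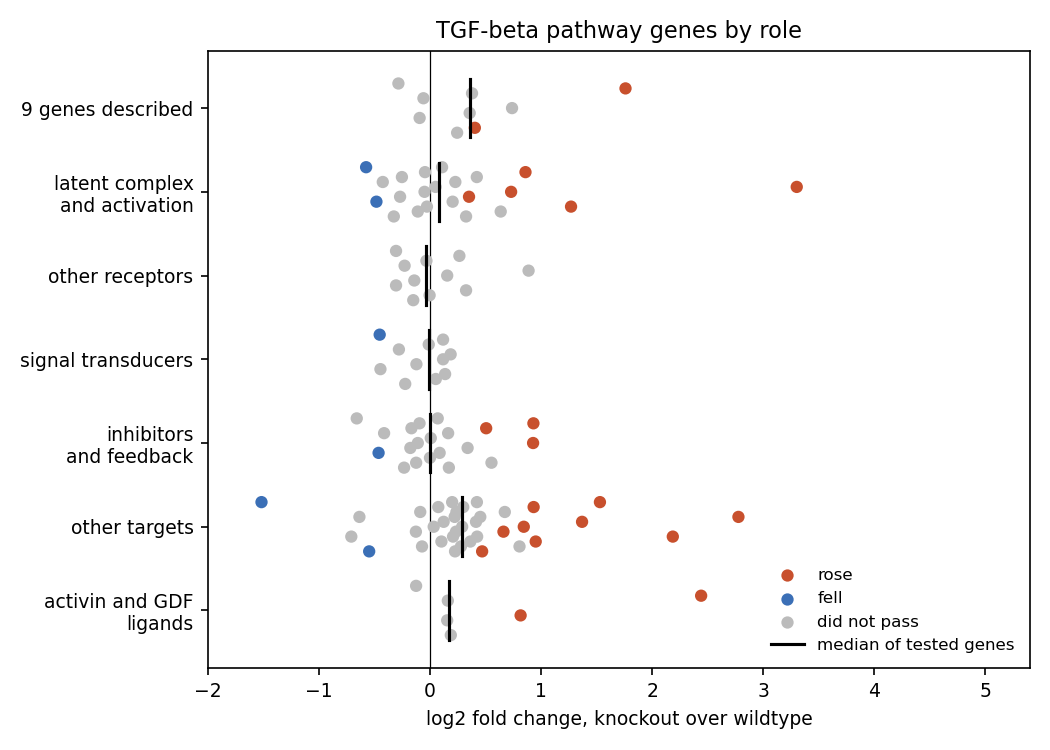
Each point is 1 tested gene placed by its log2 fold change (knockout over wildtype, x axis) in the row of its list (y axis), coloured by whether it rose, fell or did not pass, with a bar at the list's median. The medians run from -0.03 for the other receptors to 0.36 for the 9 genes described first.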

How the data were processed

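The deposited values are read counts per gene, 1 table per library, whole numbers with no normalization. Per the submitters' processing notes, STAR, HTSeq, edgeR and the mouse build mm9 were used by the authors; the sources used here give no versions, roles or annotation. Per the labels' protocols, 200 ng of total RNA and 15 PCR cycles with a directional kit were used, but the names of the deposited count tables say not stranded, so overlapping genes on opposite strands cannot be told apart. Between 63.8% and 69.1% of records fell in a gene. Summary rows stayed out of library sizes and tests, and 0 other per-sample columns were present. A gene name table matched 32860 of the 37583 identifiers. Symbols in the gene and marker lists were matched through it and older names.

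Genes were kept by filterByExpr, scaled by TMM factors and compared, 4 knockout against 4 wildtype libraries, by the two-sided quasi-likelihood test of edgeR 4.0.16 in R 4.3.3 (robust, without covariates). P-values were adjusted by Benjamini-Hochberg across the 15228 genes, at a threshold of 0.05. The SE is the absolute log2 fold change over the square root of F. Exact permutation p-values for single values are two-sided and cover all 70 assignments. Levels per kilobase use GENCODE M21 exon lengths (GRCm38, not the authors' build), and RefSeq promoter windows were found for 7 of the 9 genes. Patterns across libraries were compared on log2 CPM (prior count 2). The fit was tested on simulated data with the same dispersion for every gene, which does not cover genes that vary more, such as Ltbp2. Pairs of libraries within a group differed beyond sampling noise (chi-square 9.04 to 22.9 per degree of freedom).

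The 9 genes, the lists and the alternatives were chosen with earlier results of these data known. Named are the 9 genes, up to 4 genes per list with the smallest adjusted p, the 3 genes most like each of the 9 that passed, and others stated as picked after their values were seen. Alternatives were other scalings (DESeq2 size factors, library totals, upper quartile), DESeq2 1.42.0, limma voom (limma 3.58.1), a replicate block, no filter, a minimum of 1 CPM in 4 or more libraries, thresholds of 0.01 and 0.10, each library left out, knockout libraries 1 and 4 left out, and a clock score as a term.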

Additional observations from a re-analysis of the deposited data

Results flagged for a closer look

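Of 66 groups of 4 libraries examined for a library far from the others (the gap to the nearest other library over the group's range, above Dixon's 95% critical value), 2 were found, and chance gives about 1 in 20. None was in 1 of the 9 genes. For Cdkn1a, wildtype library 1 stood above its group at 14.5 CPM, with the next at 10.1 CPM and a gap ratio of 0.855. For Inha, knockout library 3 stood below its group at 1.23 CPM, with the next at 1.87 CPM and a gap ratio of 0.989.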

How the results depend on the processing

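Over all genes, 1817 calls became 706 and 2850 at adjusted p under 0.01 and under 0.10, 1094 with a replicate block, 912 without knockout libraries 1 and 4, 810 with the clock score, and 1076 to 1940 with each library left out; the lowest, 1076 and 1176, were without knockout 2 and knockout 4. DESeq2 called 2417. Of the 9 genes, 2 calls became 0 at 0.01, 0 with limma voom (7 at an unadjusted p under 0.05), 1 without a filter, 1 with the replicate block, 0 without knockout 1 and 4 (2 unadjusted), 1 with the clock score, 3 with DESeq2, and 0 to 2 with each library left out. Of the other pathway genes, 25 calls became 12 at 0.01, 12 without knockout 1 and 4, 9 with the clock score, and 16 to 27 with each library left out. The cause was not tested. No called value changed sign under these alternatives. Library totals raised the share of rising genes among calls from 52.2% to 76.5%.

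Same-numbered libraries did not deviate together (r = -0.381, -0.262, 0.0514 and 0.104 over the 5000 highest genes), and the numbers were not taken as pairs. With 4 libraries per group, these values cannot tell whether libraries shared a litter or batch. With the replicate block the adjusted p was 0.123 for Tgfb1 and 0.0298 for Ltbp2. Depth limits Ltbp2 in the wildtype libraries (17 to 49 reads each) most among the 9 genes.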
